A study of Arabidopsis thaliana with 44 samples.

Results

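The sites described here are adenosines of Arabidopsis nuclear mRNAs that lie in the letters GAT, the A being the modified base, and that the authors listed as m6A sites in the CDS or the 3' UTR. They were chosen by sequence and place alone, on chromosomes 1 to 5, by having G as the 2nd and T as the 4th letter of the deposited 5-letter motif. In the table of 9 tissues 31668 of 188282 listed sites met this rule, 19353 in the CDS and 12315 in the 3' UTR, in 13081 genes. In the table of Col and mta seedlings 10774 of 50458 did. The 4 groups made by the letter before GAT are named by that letter in front of it, in DNA letters, as AGAT for the group with A.

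m6A, a methyl group on the N6 position of adenosine, is the most common internal mark of plant mRNA. A writer complex built around MTA and MTB places it, mainly in RAC motifs (R is A or G) near the end of the message, and YTH-domain proteins of the ECT family bind it. In m6A-SAC-seq the enzyme MjDim1 adds an allyl group to m6A, and after cyclization the base is read as a mutation by reverse transcriptase. The enzyme labels some sequences better than others, so spike-in probes that carry a known m6A fraction in each motif turn the mutation rate into an m6A fraction. Levels set side by side for different motifs therefore rest on this calibration.

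The tissue series held seedlings of day 7, shoots and roots of day 14, rosette leaves of day 30, and cauline leaves, stems, flowers, siliques and dry seeds of the Col-0 accession. The second experiment compared Col seedlings with seedlings of mta of day 8. No day was given for the Col seedlings, so age and genotype cannot be told apart in that comparison. The mta line, ABI3::MTA/mta, lacks its own MTA and carries an MTA copy under the ABI3 promoter, which is active in the embryo, since loss of MTA is lethal at that stage. Each tissue and genotype had 2 biological replicates, each with a treated and an untreated input library. The authors deposited 1 depth and 1 fraction for each site and tissue or genotype, with the replicates pooled, so no site has a spread between replicates. Totals on genes were 3355823 to 6903234 reads in the 18 input libraries and 10382637 to 14693950 in the 18 treated libraries of the tissue series. Fractions were used where the depth was at least 20 reads, and at that minimum the members had a median depth of 59 reads in rosette leaf to 105 in root.

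Contexts of the most modified site of each first letter, among sites with at least 20 reads in all 9 tissues, show what the class looks like, with 12 bases on each side of the A, 5' to 3' in the TAIR10 build, and the letters GAT in capitals. The 3' UTR sites, with the highest median fraction over tissues of their group, were these.
SNF4, AGAT (chr1:2899940-2899964, minus strand): attcttgtgaaGATattggctaccg
AT5G11490, CGAT (chr5:3676190-3676214, plus strand): ttgtaaaatgcGATgatactttttc
CUL1, GGAT (chr4:1133600-1133624, plus strand): tttgccttgtgGATttttgtttctt
AT5G28900, TGAT (chr5:10930172-10930196, plus strand): atttgttagctGATtctacagttat
Of the CDS sites chosen in the same way, those of AGAT and TGAT are shown, since the windows of the other 2 crossed an exon edge. In both, GAT is an aspartate codon.
NRPB1, AGAT (chr4:16964795-16964819, minus strand): ctgctgtgaaaGATcttatccggca
CKL13, TGAT (chr1:1205187-1205211, plus strand): gcgttcaagctGATcagtctagtag

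The site of CUL1, the scaffold subunit of SCF ubiquitin ligases, lay 177 nt after the stop codon. Its fraction was 1 in seedling, shoot, stem, flower and silique, 0.950 in rosette leaf, 0.946 in cauline leaf, 0.880 in root and 0.777 in seed, at depths of 50 to 494 reads. It was thus at 0.880 or more in 8 tissues, with seed lowest. SNF4, a subunit of the SnRK1 energy-sensing kinase, had a site with a median fraction of 0.925 over tissues, from 0.531 in seed to 1 in 4 tissues. The best TGAT site in a 3' UTR, in AT5G28900, had a median of 0.539, and the best CGAT site, in AT5G11490, a median of 0.235. Sites covered in fewer tissues reached higher medians in some groups, 0.365 for CGAT in the 3' UTR and 0.860 for AGAT in the CDS over 3 tissues or more. In the CDS the highest GGAT site was that of CPA, with a median of 0.894, a lowest value of 0.633 in seed and depths of 24 to 97 reads. Its window crosses an exon edge. The AGAT site of NRPB1, the largest subunit of RNA polymerase II, had a median of 0.410, that of CKL13 (TGAT), a casein kinase 1-like protein, 0.464, and that of DEG9 (CGAT), a serine protease, 0.375.

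The letter before GAT differed between the regions. In the CDS 16677 of 19353 sites were AGAT (86.2%), with 1274 GGAT (6.58%), 1157 TGAT and 245 CGAT. Of the 3' UTR sites 6390 of 12315 were AGAT (51.9%) and 4830 GGAT (39.2%), with 1046 TGAT and 49 CGAT. The commonest 5-letter word was AGATG in the CDS, with 9886 sites, and GGATT in the 3' UTR, with 2468. These numbers were set against all places where the letters occur in the same parts of 19151 transcripts with a listed site. Of GGAT occurrences in the 3' UTR 27.4% were listed, against 18.2% of AGAT, 2.33% of TGAT and 0.486% of CGAT. In the CDS 8.97% of AGAT occurrences were listed, and under 1% of the others (GGAT 0.951%, TGAT 0.619%, CGAT 0.306%). GGAT was thus the group most often listed in the 3' UTR and AGAT in the CDS, and CGAT was listed least in both. By word the share ran to 34.5% for GGATT in the 3' UTR and 16.7% for AGATG in the CDS. A site enters the list when it passes the authors' calling in at least 1 tissue, so these shares also depend on read depth.

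**Figure D1:**
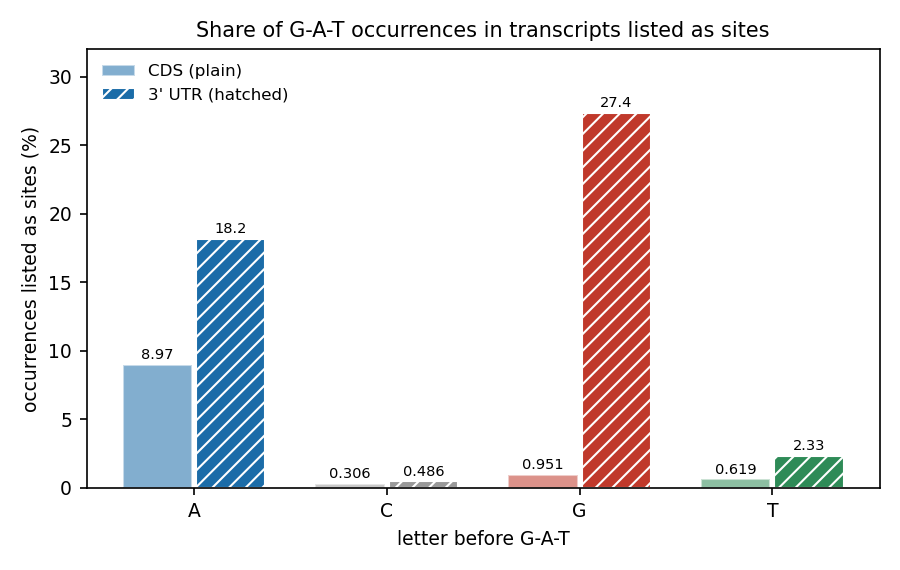
Share of all occurrences of each letter followed by GAT that were listed as m6A sites (y axis, %), by the letter before GAT (x axis), in the CDS (plain bars) and the 3' UTR (hatched bars) of transcripts with a listed site. The bar of G in the 3' UTR (27.4%) is the highest, and in the CDS the bar of A (8.97%) is the highest.

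The level of modification was higher in the 3' UTR. In the CDS the median fraction was 0.104 in seedling, 0.104 in shoot, 0.0487 in root, 0.0589 in rosette leaf, 0.112 in cauline leaf, 0.0750 in stem, 0.0933 in flower, 0.135 in silique and 0.0660 in seed. In the 3' UTR it was 0.172 in seedling, 0.165 in shoot, 0.141 in root, 0.152 in rosette leaf, 0.204 in cauline leaf, 0.164 in stem, 0.191 in flower, 0.193 in silique and 0.176 in seed. Root was lowest in both, silique highest in the CDS and cauline leaf in the 3' UTR. Every 3' UTR value lay above every CDS value. The 3' UTR exceeded the CDS by 0.0844 on average (0.0578 to 0.110, higher in every one of the 9 tissues, exact permutation test that flips the sign of each tissue, both sides, p = 0.00391, adjusted p = 0.00479). This p is the smallest that 9 tissues can give, and 38 differences of this kind were tested and adjusted together. The tissues are measured on 1 common list of sites, so they are not fully independent.

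Against RAC sites, the usual target of the writer complex, GAT sites were lower in both regions. The tissue medians of the 3' UTR averaged 0.173 for GAT and 0.451 for RAC, a difference of -0.278 (-0.312 to -0.251 over tissues), and in the CDS 0.0887 and 0.114, a difference of -0.0253 (-0.0318 to -0.0215). Both held in 9 of 9 tissues (exact sign-flip permutation test, adjusted p = 0.00479 for each). Sites of all other motifs had 0.227 in the 3' UTR, above GAT in 9 of 9 tissues, and 0.0747 in the CDS, below GAT in 9 of 9 (adjusted p = 0.00479 for each, exact permutation test). The CDS difference of 0.0140 from other motifs turned to -0.0775 with means in place of medians and to -0.197 with only sites past the authors' mark.

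GGAT stood apart in the 3' UTR. Its tissue medians averaged 0.268, from 0.239 in root to 0.307 in cauline leaf, against 0.142 for AGAT (0.104 to 0.173), 0.132 for CGAT and 0.126 for TGAT. The lowest GGAT value lay above the highest value of each other letter. GGAT exceeded AGAT by 0.126 on average and TGAT by 0.141, in 9 of 9 tissues (exact sign-flip permutation test, adjusted p = 0.00479 for each). AGAT and CGAT did not differ beyond the spread over tissues (mean difference 0.0100, range -0.0112 to 0.0459, exact permutation p = 0.160, adjusted p = 0.174), nor did CGAT and TGAT (mean 0.00530, range -0.0223 to 0.0223, exact permutation p = 0.238, adjusted p = 0.245), and CGAT had only 49 listed sites.

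In the CDS the order was another, and its steps were small. CGAT had the highest average of the tissue medians, 0.115, then TGAT with 0.0953, AGAT with 0.0887 and GGAT with 0.0787. Each of these steps had the same sign in 9 of 9 tissues (exact sign-flip permutation test, adjusted p = 0.00479 for each). With only marked sites, AGAT was lower than GGAT (-0.0333), GGAT was higher than TGAT (0.00878), and the step from CGAT to TGAT was no longer past the threshold. The step between regions was largest for GGAT, 0.189 in favour of the 3' UTR, then 0.0529 for AGAT and 0.0310 for TGAT (exact permutation test, adjusted p = 0.00479, 0.00479 and 0.00928). For CGAT it was 0.0165, with 5 of 9 tissues higher in the 3' UTR (exact permutation p = 0.188, adjusted p = 0.198).

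**Figure D2:**
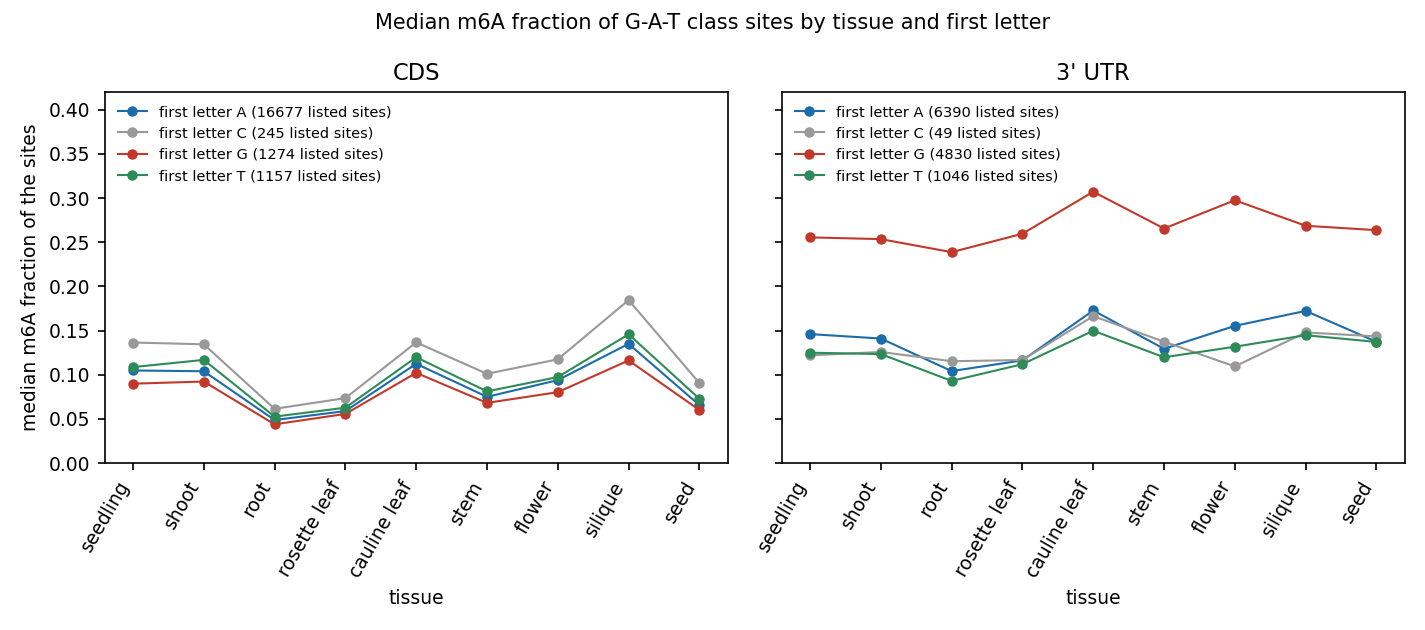
Median m6A fraction (y axis) of GAT sites at a depth of at least 20 reads in each of 9 tissues (x axis), by the letter before GAT, in the CDS (left) and the 3' UTR (right); each point is 1 tissue, with replicates pooled. Sites with first letter G lie at 0.239 to 0.307 in the 3' UTR, above all other groups, while in the CDS the 4 groups lie close together and move with the tissue.

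The letter after GAT mattered in another way. In the CDS the average of the tissue medians was 0.102 with G, 0.0928 with T, 0.0717 with C and 0.0653 with A, and all 6 differences had an adjusted p of 0.00479 (exact sign-flip permutation test). G over T reversed to -0.0260 with only marked sites and to -0.000596 with means. T stood out in the 3' UTR with 0.228, against 0.157 with C, 0.138 with G and 0.138 with A. The difference between A and G there was -0.000529 (5 of 9 tissues, exact permutation p = 0.953). Among the AGAT sites of the 3' UTR the averages ran from 0.108 with A as the 5th letter to 0.208 with T. Among the GGAT sites they also ran from A, with 0.242, to T, with 0.289. The lowest GGAT average was thus above the highest AGAT average.

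Highly modified sites were nearly all in the 3' UTR. Over sites with values in at least 3 tissues, 952 of 9779 in the 3' UTR (9.74%) had a median fraction of at least 0.5, against 12 of 17123 in the CDS (0.0701%). Of the 952, 679 were GGAT, which is 18.6% of the GGAT sites, and 270 were AGAT, which is 5.27% of the AGAT sites. TGAT had 3 and CGAT none. The bases around them also differed: of AGAT sites at 0.5 or more in the 3' UTR 62.6% had T after GAT, against 24.8% of those under 0.2, and for GGAT the shares were 54.5% and 44.9%. The 20 flanking bases were A or T at 69.9% of positions for the AGAT sites at 0.5 or more and 67.8% for those under 0.2, and at 71.0% and 68.3% for GGAT. These shares are descriptions with no test.

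Most CDS members lay in aspartate codons, as did most GAT letters of the CDS. The A was the middle base of GAT, a codon of aspartate, at 11078 CDS sites (57.5%), the first base of ATG, the codon of methionine, at 3180 (16.5%), the last base of AGA, an arginine codon, at 1719 (8.92%), and the first base of ATA, an isoleucine codon, at 1509 (7.83%). Of all 580701 GAT occurrences in the CDS 318735 had the A as the 2nd base of a codon, and 3.31%, 3.45% and 2.60% were listed with the A as the 1st, 2nd and 3rd base. Among the AGAT occurrences alone, 11.1% were listed where the A was the 2nd base of a codon, 7.86% where it was the 1st and 5.54% where it was the 3rd. Levels differed little by frame: the tissue medians averaged 0.0878 for the 1st base, 0.0904 for the 2nd and 0.0824 for the 3rd. All 3 differences had the same sign in 9 of 9 tissues (exact sign-flip permutation test, adjusted p = 0.00479 for each), but with only marked sites the sign turned for the 1st minus the 3rd base (-0.00627) and the 2nd minus the 3rd (-0.000712).

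Along the message, numbers rose towards the end of the CDS and peaked inside the 3' UTR. Each region was split into 10 equal parts. The numbers of sites in these parts were not set against GAT occurrences or read depth along the message. The first part of the CDS held 6.73% of the CDS sites and the last part 12.7%. GGAT sites numbered 74 in the first part and 255 in the last, and AGAT sites 1110 and 2021. Levels in the CDS were flat, 0.0864 in its first 2 parts and 0.0893 in its last 2 (difference 0.00290, higher in 7 of 9 tissues, exact sign-flip permutation p = 0.0234, adjusted p = 0.0262), and this difference had an adjusted p of 0.0509 over sites with depth in all 9 tissues. Of 3' UTR sites 15.0% lay in part 4 and 2.11% in the last, with a median distance of 121 nt from the stop codon. The level was 0.104 in the first part, 0.208 in part 7 and 0.169 in the last. The first 5 parts averaged 0.160 and the last 5 0.202 (difference -0.0420, lower in 9 of 9 tissues, exact permutation test, adjusted p = 0.00479).

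Distance from the stop codon gave the same picture by letter. GGAT sites had 0.191 within 50 nt after the stop codon, 0.270 from there to 100 nt, 0.308 from there to 150 nt and 0.255 beyond 300 nt. AGAT sites had 0.104, 0.149, 0.160 and 0.139 in the same windows. Both groups were lowest next to the stop codon and highest in the window that ends at 150 nt. In the last 50 nt of the CDS GGAT sites had 0.109, and 0.0759 at 51 to 100 nt before its end. Distances along the genome were also taken to the nearest RAC site of the same gene marked at depth 20 or more in any tissue. The median was 36 nt for 3' UTR members and 181 nt for CDS members, and 29.3% and 9.29% lay within 20 nt of one. The density of such RAC sites in each region was not set beside these distances.

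The medians of the listed CDS sites spread more over the tissues than those of the listed 3' UTR sites. Over the 8617 CDS members with depth in all 9 tissues, the median was 0.131 in silique and 0.0479 in root, a ratio of 2.74, and 40.9% of these sites had their highest value in silique against 0.661% in root. Over the 4371 such 3' UTR members the ratio was 1.60, between 0.195 in cauline leaf and 0.122 in root, with 23.4% highest in cauline leaf and 16.9% in silique. RAC sites of the CDS had the same lowest and highest tissues, with a ratio of 2.25 and 28.5% of sites highest in silique. In the 3' UTR their ratio was 1.18, with root at 0.407 and rosette leaf at 0.407 lowest, and rosette leaf was lowest with means or at a depth of 10. GGAT sites of the 3' UTR varied less (ratio 1.40) than AGAT sites there (1.79). These ratios have no test of their difference. A site is listed when it passes the authors' calling in at least 1 tissue, which favours sites high in the tissue that let them in. Of the CDS members 7676 were marked in silique against 939 in root. The shares of sites highest in each tissue thus follow in part from the listing, and so do the medians and their ratios. How far the listing accounts for the wider spread in the CDS was not tested.

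The authors' mark, given to sites at a fraction above 0.1, gave another order of tissues. Of the CDS members 732 were marked at depth 20 or more in rosette leaf, 939 in root and 7676 in silique. Those of the 3' UTR ran from 3128 in rosette leaf to 5782 in flower, with 5099 in root. Of members marked anywhere, 1348 of 11035 in the 3' UTR (12.2%) were marked in all 9 tissues, 828 of them GGAT, 474 AGAT and 46 TGAT, against 41 of 17405 in the CDS (0.236%). For RAC sites these shares were 11.8% in the 3' UTR and 1.31% in the CDS. In the CDS 63.5% of marked members were marked in 1 tissue only, against 34.6% in the 3' UTR. The CDS medians lie close to 0.1, so a small move of the level moves many sites across the mark. GAT sites made up 6.97% of the marked CDS sites in root and 19.4% in silique, and 17.8% to 21.9% of those in the 3' UTR.

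Some sites varied far more than their group. The widest ranges among CDS members with at least 50 reads in every tissue were those of CKL13, AT5G60750, MSRB1 and AT1G48090. CKL13 had 0.883 in silique, 0.588 in seedling, 0.516 in shoot, 0.464 in flower, 0.489 and 0.411 in cauline and rosette leaf, 0.372 in stem, 0.330 in seed and 0.248 in root, at depths of 113 to 457 reads. Silique was highest and root lowest, as for the CDS members as a whole. MSRB1, a methionine sulfoxide reductase, ran from 0.0851 in root to 0.460 in silique, and AT5G60750 from 0.113 in rosette leaf to 0.528 in silique. AT1G48090 had 0 in root at 58 reads and 0.369 in shoot at 88.

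The 4 widest ranges in the 3' UTR were all at GGAT sites, in AT3G58510, AAPT1, TRX3 and U2A'. TRX3, a cytosolic thioredoxin, had 0.309 in seedling, 0.330 in rosette leaf, 0.348 in cauline leaf, 0.353 in root, 0.435 in shoot, 0.530 in flower, 0.534 in seed, 0.602 in stem and 0.752 in silique, at 164 to 754 reads. Silique was again highest, while root was not lowest. AT3G58510 ran from 0.218 in seed to 0.700 in shoot, AAPT1, an aminoalcohol phosphotransferase of phospholipid synthesis, from 0.269 in root to 0.713 in cauline leaf, and U2A', a protein of the U2 spliceosome particle, from 0.325 in seed to 0.749 in cauline leaf. Seed had the lowest value in 2 of these 4 sites. These sites were picked for their range, so the ranges are descriptions with no test.

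In the mta experiment the targeted gene was checked first. MTA had 5.94 and 5.99 TPM in the Col input libraries and 3.74 and 2.98 in those of mta, and 4.66 and 5.04 against 1.78 and 2.22 in the treated libraries. Both mta libraries lay below both Col libraries in each kind. Reads of the ABI3::MTA copy count as MTA, so this level is not that of the mutated gene alone.

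The median of the 3' UTR members was lower in mta than in Col, and that of the CDS members was not. At depths of at least 20 reads in both genotypes, 2735 members in the 3' UTR had a median of 0.229 in Col and 0.152 in mta, and 77.2% were lower in mta. GGAT went from 0.316 to 0.188, AGAT from 0.178 to 0.139 and TGAT from 0.153 to 0.109. The 4031 members in the CDS went from 0.0958 to 0.121, with 37.2% lower in mta. Of these CDS members 1698 carried the authors' mark in mta only, 889 in Col only and 611 in both. In the 3' UTR the numbers were 316, 851 and 1229. The higher CDS median in mta thus rests in part on members marked only where they were high, and is not read as a rise. The same limit holds for the lower 3' UTR median in mta, with 851 members marked in Col only. How far the listing moves either median was not tested. By word, GGATG showed the widest step of the 3' UTR words of AGAT and GGAT, 0.379 to 0.209, with 90.8% of 131 sites lower, while AGATG there stayed at 0.123 and 0.130. With 1 pooled fraction for each genotype these differences have no test.

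A site was called MTA-dependent where its fraction was at least 0.1 in Col and at most 2/3 of that in mta. Of 2338 members in the 3' UTR with at least 0.1 in Col, 1366 met this (58.4%, 95% Wilson interval 56.4 to 60.4%), and of 1927 in the CDS 770 did (40.0%, 37.8 to 42.2%). Over all listed sites the share was 42.8%, and for RAC sites it was 44.4% in the 3' UTR and 35.4% in the CDS. With this minimum, GAT sites of the 3' UTR were above the share of all listed sites and those of the CDS below it. The order of the regions rested on the minimum: at 0.2 or more in Col, 254 of 370 CDS members (68.6%) and 999 of 1557 in the 3' UTR (64.2%) met the rule, against 48.3% of all listed sites. By letter in the 3' UTR, 660 of 1101 GGAT (59.9%), 591 of 1061 AGAT (55.7%), 113 of 167 TGAT (67.7%) and 2 of 9 CGAT sites met the rule. In the CDS it was 50 of 84 GGAT sites (59.5%), 670 of 1684 AGAT (39.8%), 42 of 122 TGAT (34.4%) and 8 of 37 CGAT. The intervals cover counting error only, and sites of 1 gene or 1 read are not independent. Members marked in Col only, 851 in the 3' UTR and 889 in the CDS, can raise these counts. How far they do so was not tested.

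The same rule was run between the Col seedlings and the day 7 seedlings of the tissue series, which are of the same accession and carry no mta. Only sites listed in both tables could enter. The tissue list was made in part from these seedlings, which can hold their values up and keep their count low. How far it does so was not tested. Over sites with depth in all 3, 385 of 2218 members in the 3' UTR (17.4%, 15.8 to 19.0%) were at 2/3 of Col or less in those seedlings, against 1283 in mta (57.8%, 55.8 to 59.9%). In the CDS the numbers were 287 and 462 of 1427 (20.1%, 18.1 to 22.3%, and 32.4%, 30.0 to 34.8%). Over all listed sites with depth in all 3, 22.7% met the rule in the seedlings and 39.2% in mta. In mta the CDS share of 32.4% was thus below that of all listed sites, and the 3' UTR share of 57.8% above it. The intervals run over sites that share libraries and cover no spread between replicates, so they are no test of the genotype. Harvest day and experiment differ between these seedlings and mta, and their part in the difference was not tested.

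The opposite direction, examined after these values were seen, gave the reverse picture. Its CDS count has the limit given above, with 1698 CDS members marked in mta only. Of members with at least 0.1 in mta, 1489 of 2660 in the CDS (56.0%, 54.1 to 57.9%) and 285 of 1946 in the 3' UTR (14.6%, 13.1 to 16.3%) were at 2/3 of the mta value or less in Col, against 37.1% of all listed sites. Against the tissue-series seedlings, Col was likewise lower at 773 of 1968 members in the CDS (39.3%) and 344 of 2237 in the 3' UTR (15.4%). On the shared CDS sites the medians were 0.105 in Col, 0.125 in mta and 0.127 in the tissue-series seedlings, so Col was the low one of the 3. On the shared 3' UTR sites they were 0.247, 0.158 and 0.237, so mta was the low one. Across those 2497 sites of the 3' UTR the fractions of Col had a Spearman correlation of 0.807 with the tissue-series seedlings and 0.646 with mta. Across 2648 sites of the CDS they were 0.311 and 0.0298, as descriptions over sites that share libraries. Members marked in only 1 genotype can lower the correlation of Col with mta. In the CDS 1698 members were marked in mta only, 889 in Col only and 611 in both. The value of 0.0298 is thus not read as a loss of the CDS pattern in mta.

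**Figure D3:**
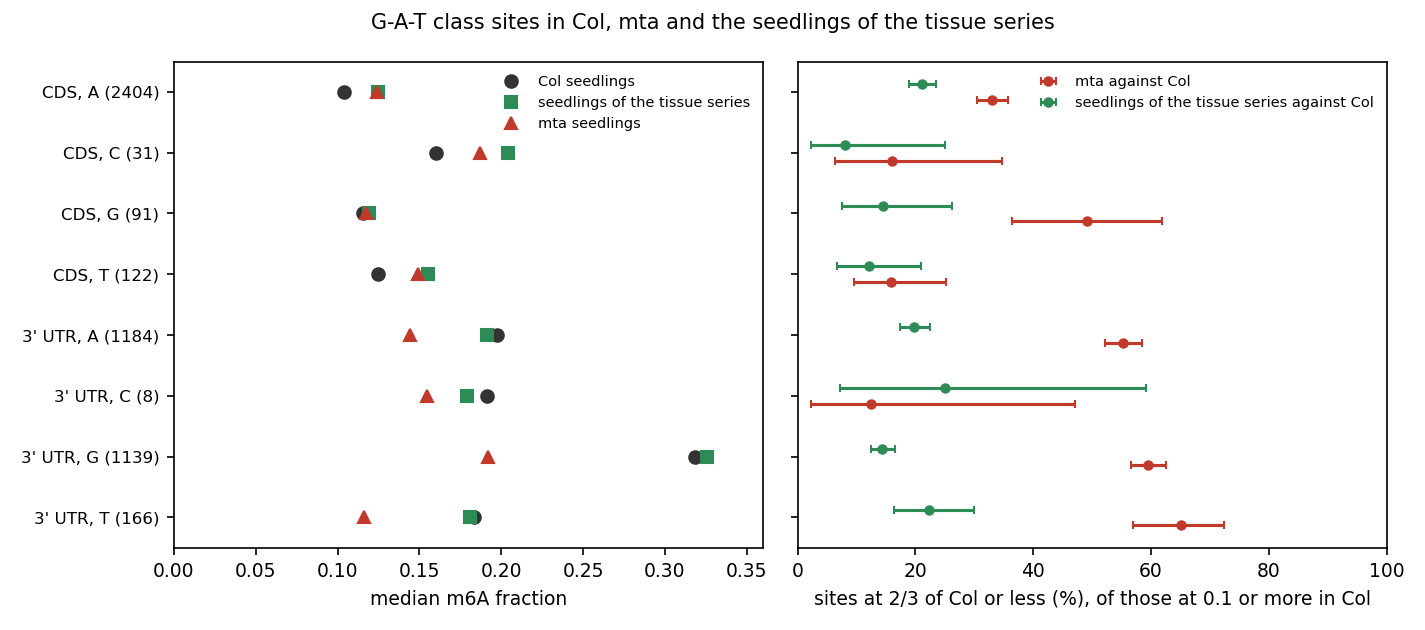
Left, median m6A fraction (x axis) of GAT sites in Col, in mta and in the seedlings of the tissue series, by region and first letter (rows, number of sites with depth in all 3 in brackets); right, share of sites (%) at 2/3 of Col or less, of those with at least 0.1 in Col, with 95% Wilson intervals. In the 3' UTR rows of A, G and T mta lies left of both seedling samples and its shares lie at 55% or more, while in the CDS Col has the lowest median.

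In the 3' UTR the share called was lowest for sites with a low level in Col. Of 3' UTR members 47.0% at 0.1 to 0.2 in Col were MTA-dependent, 66.3% at 0.2 to 0.4, 62.7% at 0.4 to 0.6 and 58.6% above 0.6. The matching shares in the tissue-series seedlings were 12.9%, 22.5%, 15.0% and 15.9%. CDS members had 33.1% at 0.1 to 0.2, where 1557 of them lay, and 69.0% of 358 at 0.2 to 0.4, with medians of 0.231 in Col and 0.116 in mta. From 0.2 to 0.4 the CDS share was thus no lower than that of the 3' UTR. In the tissue-series seedlings, however, the CDS shares were 14.7% and 47.8%, so in the upper range many CDS sites were also below Col with no change of genotype. Few CDS members lay higher in Col: 7 of 10 were MTA-dependent at 0.4 to 0.6 and 0 of 2 above 0.6. By place after the stop codon, 51.2% of AGAT and 61.0% of GGAT sites within 50 nt were MTA-dependent, and 59.3% and 62.0% of those past 100 and up to 150 nt. mta kept part of the modification at high sites, with a median of 0.458 in mta for 3' UTR members above 0.6 in Col (median 0.701).

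The sites that fell most, among those with at least 50 reads in both genotypes, are shown with their neighbours, as a set of AGAT, GGAT and TGAT sites of the 3' UTR.
RPL35B, AGAT (chr2:16450708-16450732, minus strand): tccttgttaaaGATattaaaagctc
IBI1, AGAT (chr4:15159424-15159448, plus strand): aagcttttagaGATttttacttctt
UEV1D-4, GGAT (chr3:19494531-19494555, minus strand): tggtctgtgtgGATggtatggtgat
SAP18, GGAT (chr2:18799756-18799780, minus strand): tgtattttttgGATctagtctatgt
SUMO2, TGAT (chr5:22383697-22383721, minus strand): taagattgtgtGATattaatggatt
SYP71, TGAT (chr3:2991429-2991453, plus strand): tcttcttctctGATatttctacgag
RPL35B (AT2G39390), a protein of the large ribosomal subunit, had 0.945 in Col (186 reads) and 0.468 in mta (134 reads), and 0.932 in the tissue-series seedlings. IBI1 (AT4G31180), an aspartyl-tRNA synthetase, had 0.828 and 0.407, with 0.620 in those seedlings. Of the GGAT sites, UEV1D-4, a ubiquitin-conjugating enzyme variant, went from 0.782 to 0.316, SAP18, a protein of histone deacetylase complexes, from 0.746 to 0.288 and mMDH2, a mitochondrial malate dehydrogenase, from 0.773 to 0.342. The tissue-series seedlings had 0.632, 0.689 and 0.758 at these 3 sites, so at all 5 they lay between Col and mta.

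TGAT sites started lower. UXS4, a UDP-xylose synthase, had 0.403 in Col and 0.129 in mta, SUMO2, a small protein that is attached to others as a tag, 0.309 and 0.0467, and SYP71, a syntaxin of membrane fusion, 0.267 and 0.0193. For SUMO2 and SYP71 the tissue-series seedlings had 0.0824 (200 reads) and 0.112 (188 reads), far below Col, so the Col value was not met in the other wild-type sample. The falls of CGAT, all in the CDS, were smaller: 0.252 to 0.123 in AT3G57800, 0.138 to 0.0447 in AT1G15130 and 0.0794 to 0.00987 in AT3G18060. These sites were picked by the size of the fall, so their falls are descriptions.

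The 3 largest rises were all in the CDS. In SPP, the stromal processing peptidase of chloroplasts, the fraction was 0 in Col (53 reads) and 0.348 in mta (69 reads). In RPS15AD, a small ribosomal subunit protein, it was 0 (116 reads) and 0.236 (66 reads), and in GAMMA-VPE, a vacuolar processing enzyme, 0.0670 (142 reads) and 0.299 (67 reads). Only the site of GAMMA-VPE was also listed in the tissue table, with 0.158 in seedling. The first 2 contexts show that 1 is an aspartate codon and the other falls across codons.
SPP, GGAT (chr5:16948748-16948772, plus strand): cacgttacatgGATgctcttctaaa
RPS15AD, TGAT (chr3:16914957-16914981, plus strand): aggcaggttatGATcaggccttctt

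**Figure D4:**
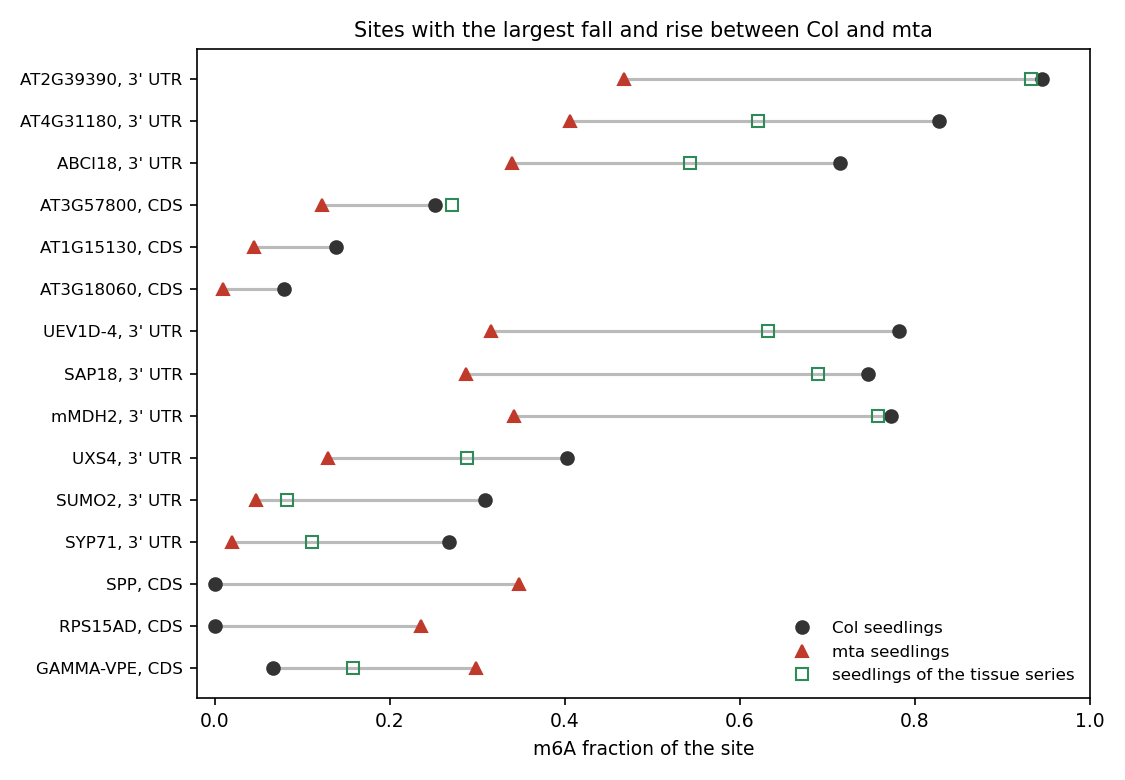
m6A fraction (x axis) of the sites with the largest fall in mta for each first letter and of the 3 with the largest rise (rows), in Col (circles), mta (triangles) and, at depth 20 or more, the seedlings of the tissue series (squares); each point is 1 pooled value. RPL35B, listed as AT2G39390, falls from 0.945 to 0.468 and SPP rises from 0 to 0.348; SUMO2 and SYP71 have low squares, at 0.0824 and 0.112.

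The mRNA level of genes with such sites was compared on the input libraries with limma on log2(TPM + 1). Of 1157 tested genes with an MTA-dependent GAT site in the 3' UTR, 271 were lower and 24 higher in mta at an adjusted p under 0.05, that is 23.4% and 2.07%, against 12.4% and 2.66% of all 18420 genes tested. Their median log2 difference was -0.19, and that of all genes -0.14. Of 638 genes with a 3' UTR site of at least 0.1 in Col and none that fell, 121 were lower (19.0%) and 21 higher (3.29%), with a median of -0.13. Both groups needed a site with at least 20 reads in both genotypes, while all genes needed only a mean of 1 TPM. The share over all genes is thus not like for like, and the part of read depth in the difference was not tested. Genes with an MTA-dependent site in the CDS had 79 lower (11.3%) and 27 higher of 700. Once the libraries were centred on their medians, the split over all genes went from 2279 lower and 490 higher to 824 lower (4.47%) and 859 higher (4.66%). For the genes with a fallen 3' UTR site it went to 82 lower (7.09%) and 64 higher (5.53%). Leaving out any 1 of the 4 libraries left 0 genes called by limma, with 4821 to 5259 at an unadjusted p under 0.05.

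Single genes show that site and message need not move together. UEV1D-4 had 63.2 and 63.8 TPM in Col and 67.5 and 67.2 in mta (log2 difference 0.08, SE 0.07, limma adjusted p = 0.407), and SYP71 had 61.9 and 61.4 against 64.4 and 61.6 (0.03, SE 0.07, adjusted p = 0.774). In RPL35B the values were 131 and 120 against 84.3 and 74.9 (-0.65, SE 0.10, adjusted p = 0.0343), and in UXS4 52.5 and 55.4 against 33.9 and 32.6 (-0.68, SE 0.07, adjusted p = 0.0270). The genotypes overlapped for SYP71 and did not for the other 3 genes.

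Sites of the m6A pathway itself came next. Over all genes, 13081 had members, beside 19151 transcripts, 1 for each gene, with a listed CDS or 3' UTR site. The numbers of genes with members in this list and the next ones are descriptions beside that share, with no test. Of 6 writer genes 5 had members, 16 sites in all, 14 of them in the CDS. The highest was the GGAT site of MTB (AT4G09980), the partner subunit of MTA, 48 nt after the stop codon, with a median of 0.49 over 8 tissues, from 0.311 in seed to 0.626 in stem. The best site of FIP37, a writer subunit, had a median of 0.144 and that of VIR (AT3G05680), another subunit, 0.129. The 3' UTR site of MTA, also GGAT, had 0.127 over 6 tissues. Of 4 demethylases only ALKBH10B (AT4G02940) had members, 5 sites, with a best median of 0.152. The writers thus had 1 well modified GAT site, that of MTB.

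All 13 genes of the YTH readers had members, as most genes with a listed site did, 37 sites in all. Among sites with enough reads in at least 3 tissues ECT11 had the highest median, 0.673, over 4 tissues, followed by ECT1 with 0.431, ECT3 with 0.405 and ECT2 with 0.299. ECT10 had a CDS site at 0.363 with fewer tissues. The 4 sites named first were GGAT in the 3' UTR, and those of ECT1 and ECT2 are shown because they were covered in every tissue.
ECT1 (chr3:1023840-1023864, plus strand): ttcagggttggGATttctaaaaacc
ECT2 (chr3:4384883-4384907, minus strand): catgtctgttgGATttttaggcaga
ECT2, the main reader of seedlings, had 0.249 in seedling, 0.246 in shoot, 0.308 in root, 0.340 in rosette leaf, 0.351 in cauline leaf, 0.241 in stem, 0.244 in flower, 0.299 in silique and 0.318 in seed, at 156 to 1007 reads. The spread was small, with both leaf samples highest. In Col it had 0.329 (74 reads) and in mta 0.178 (87 reads), past the rule. ECT2 mRNA was 97.7 and 96.7 TPM in Col and 89.1 and 95.1 in mta (log2 difference -0.08, SE 0.07, limma adjusted p = 0.494). It was the only site of the YTH list with enough reads and at least 0.1 in Col, where 42.8% of all listed sites met the rule.

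Light receptors and clock genes were the next lists. Of 13 photoreceptor genes 12 had members, 48 sites, and 8 of the 14 with at least 0.1 in Col were MTA-dependent, among them 4 of 4 in the 3' UTR. Over all listed sites the share was 42.8% and over 3' UTR members 58.4%, and with so few sites the counts of this list, of the clock list and of the readers are too few to be read as different from these shares. UVR8, the UV-B receptor, had a GGAT site with a median of 0.450, from 0.263 in seed to 0.544 in root, which went from 0.573 in Col (30 reads) to 0.262 in mta (43 reads). That of PHYA, the far-red light receptor, had a median of 0.240 and went from 0.266 (97 reads) to 0.131 (143 reads). LKP2, a blue light receptor of the ZTL family, had 0.358 over 8 tissues. All 16 clock genes had members, 55 sites, and 2 of 6 with at least 0.1 in Col were MTA-dependent. Of sites of this list named here, LNK1 (AT5G64170) had a median of 0.603 and ELF3 of 0.369, both over 6 tissues, and RVE4 (LCL1) had 0.252 over 9.
UVR8 (chr5:25554693-25554717, minus strand): gtctagtttggGATtgtactttttg
PHYA (chr1:3095321-3095345, minus strand): ctgtaaatatgGATgcatatctaat

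Genes of light harvesting and of seed storage gave the deepest values. Of 14 light harvesting genes 7 had members, 8 sites, and of 7 seed storage genes 5 had members, 7 sites. With so few genes, these counts are not read as different from the share over all genes, 13081 beside 19151 transcripts. The site of LHCA2, an antenna protein of photosystem I, had 0.15 in seedling (2351 reads), 0.0834 in rosette leaf (6203 reads), 0.163 in cauline leaf (6705 reads) and 0.174 in silique (1788 reads), and 0.115 and 0.116 in Col and mta. LHCB2.1, of photosystem II, had 0.115 in seedling (23461 reads), 0.0688 in rosette leaf (38475 reads) and 0.138 in silique (12269 reads). Rosette leaf was the lowest and silique the highest of these values in both. Root and seed had few reads there and were lower. The sites of CAB2 and CAB3, antenna genes of photosystem II, lie in near-identical copies, as their sequences show, so the authors' counting may have split their reads.
CAB2 (chr1:10474964-10474988, minus strand): agagactttcaGATgtaaatttgca
CAB3 (chr1:10472324-10472348, minus strand): tgagactttcaGATgtaaatttgca
Among seed storage genes, CRC (CRU3), a cruciferin globulin, had 0.0699 in seed (86448 reads) and 0.125 in silique (23933 reads), and SESA1, an albumin, 0.0581 (11262 reads) and 0.107 (5638 reads). In each of these the silique value was above that of seed, as for the CDS members as a whole. SESA genes are also close copies of each other.

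Sites were spread over many genes. Of 11995 genes with a marked member 4637 had 1 site, 3153 had 2 and 4205 had 3 or more, and 44 had 10 or more. The most were in AT4G17140 with 15, then ATG18G, SUS2, BIG and UBP13 with 14 each. ATG18G belongs to a family of autophagy proteins, SUS2 is the splicing factor PRP8, BIG is a very large protein needed for auxin transport and UBP13 is a ubiquitin-specific protease. Most of these sites were in the CDS, 10 to 14 per gene, and the median over sites was 0.0718 to 0.118. Each of the 5 except BIG had a site in the 3' UTR as its highest, with 0.523 for the GGAT site of UBP13 and 0.504 for the AGAT site of SUS2. BIG had all 14 sites in the CDS, with 0.251 as its highest. For AT4G17140, ATG18G and BIG the highest site had enough reads in 1 tissue only.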

How the data were processed

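The reads were run by the authors through their m6A-SACseq workflow on TAIR10. Which aligner and counter it ran was not given in the sources used here. The authors deposited, for each site, depth (a read count), calibrated m6A fraction and whether the site passed, pooled over replicates, raw counts per gene for the tissue series and TPM per gene for Col and mta. Calibration is per motif on spike-in probes, so fraction times depth is not a number of reads. Marked sites had at least 5 reads and a fraction above 0.1. Groups came from the sample labels and harvest days from the methods, and none is given there for the Col seedlings.

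Fractions were used at depths of at least 20 reads. For each tissue the median over sites was taken, and 38 differences of medians were tested over 9 tissues by exact permutation of signs, both sides, with Benjamini-Hochberg adjustment. The motif matched the RefSeq TAIR10.1 nuclear sequence at 100% of 186437 sites, and 99.6% of the members lay at the deposited transcript position. Place, codons and occurrences were read from its annotation. Occurrences were counted in 19151 transcripts. MTA-dependent sites and intervals are defined where they are used; intervals are 95% Wilson intervals (scipy 1.17.1) and cover counting error only.

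mRNA levels were tested with limma 3.58.1 in R 4.3.3 on log2(TPM + 1) for genes averaging 1 TPM or more across the input libraries, with Benjamini-Hochberg adjustment at 0.05. TPM carries no depth. Scripts were tested on simulated data. The methods call the 2 replicates biological.

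Named sites were, for each first letter and region, the site with the highest median over tissues at depth 20 or more in all 9; for each region the 4 with the largest range at depth 50 or more; for each first letter the 3 with the largest fall in mta and the 3 with the largest rise, at depth 50 or more in both; for each gene list up to 4 genes with the highest site medians in at least 3 tissues; and the 5 genes with the most marked sites. The members, lists and rules were chosen with earlier results of these data known. Alternatives were depths of 10 and 50, marked sites, means, sites covered in all tissues, leaving out rosette leaf, other cutoffs for MTA dependence, another pseudocount, no filter, treated libraries, the replicate block and leaving out each library. The mirrored rule and the centring of libraries were added after seeing the data.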

Additional observations from a re-analysis of the deposited data

How the results depend on the processing

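Of 228 repeats of the 38 tissue differences under 6 alternatives each, 204 kept their direction and their side of the threshold, 7 lost the threshold, 3 gained it and 14 changed sign. The 3' UTR excess over the CDS for all members and the lower level than RAC kept both under every alternative. With only marked sites the following turned: G-A-T minus other motifs in the CDS, -0.197; first letter A minus G in the CDS, -0.0333; G minus T in the CDS, 0.00878; C minus T in the 3' UTR, -0.0185; 5th letter G minus T in the CDS, -0.0260; A minus G in the 3' UTR, 0.00496; codon base 1 minus 3, -0.00627, and 2 minus 3, -0.000712. With means over sites these turned: G-A-T minus other motifs in the CDS, -0.0775; first letter A minus G in the CDS, -7.02e-05; C minus T in the 3' UTR, -0.00876; 5th letter G minus T in the CDS, -0.000596; A minus G in the 3' UTR, 0.00352. That last one was 0.000705 at a depth of 10. The last minus the first 20% of the CDS, 0.00230, lost the threshold over sites covered in all 9 tissues. The cause was not tested.

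MTA-dependent members of the CDS numbered 306 at a depth of 50 and 254 at a minimum of 0.2 in Col, and those of the 3' UTR 780 at a depth of 50 and 787 at a ratio of 1/2 or less. The same rule in the tissue-series seedlings gave, in the CDS, 449 at a depth of 10, 84 at 50, 113 at 0.2 in Col and 132 at a ratio of 1/2, and in the 3' UTR 678, 137 and 165 at a depth of 10, 50 and a ratio of 1/2. The mirrored rule gave 724 in the CDS at a depth of 50, and 470, 110 and 172 in the 3' UTR at a depth of 10, 50 and a ratio of 1/2. Fewer or more sites enter at each of these settings. As shares, the 3' UTR was above the CDS at a depth of 50 (60.1% and 29.9%) and below it at a minimum of 0.2 in Col (64.2% and 68.6%).

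For mRNA, genes higher and lower in mta numbered 255 and 1311 over all genes with a pseudocount of 0.1, 198 and 1072 in treated libraries, 859 and 824 after centring, and 789 were lower with no filter. Among genes with a fallen 3' UTR site, 6 and 146, 4 and 101, and 64 and 82 were higher and lower under the first 3, and 148 were lower with no filter. The shares lower were 12.6%, 8.73%, 7.09% and 12.7% in this order, against 7.12%, 5.88%, 4.47% and 2.40% of all genes. The shares higher under the first 3 were 0.519%, 0.346% and 5.53%, against 1.38%, 1.09% and 4.66% of all genes. Without any 1 replicate all these counts ranged from 0 to 0 by limma. Same-numbered libraries share only a number (correlation of their deviations 0.0587 for 1 such pairing over 18420 genes), and a fit with the replicate block called 0 genes in each direction, with 6149 at an unadjusted p under 0.05. No other paired analysis was possible because sites have 1 pooled value. Pooling leaves no replicate error for any site, and depth limits sites near 20 reads.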
